A study of Homo sapiens with 34 samples.

Results

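A set of 9 genes of the intercalated disc, the junction that joins heart muscle cells end to end, were followed through the differentiation of H1 human embryonic stem cells (ESCs) toward cardiomyocytes. They were chosen by name among 23189 genes in the count table, as connexins and desmosome genes of heart muscle, and each was read from the RefSeq transcript row with the largest total count. The 9 genes were GJA1, GJA5 and GJC1 (gap junctions), DSP, PKP2 and JUP (desmosomal plaque), DSG2 and DSC2 (desmosomal cadherins), and CTNNA3 (area composita). All 9 passed the filter on low counts in every comparison.

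All cells were H1 ESCs infected with a GIPZ lentiviral vector and selected with puromycin. The WT cells were infected with a GFP shRNA or with empty vector, and which of these each WT library held was not given. NKX2-5 shRNA, ZEB2 shRNA and ZNF503 shRNA cells each carried the shRNA vector with the strongest knockdown among those the study tested, so each knockdown rests on a single vector. Cells were sampled at day 0 (ESCs), day 2, day 6 and day 10 of a protocol in which CHIR99021, an inhibitor of GSK3β, was followed by the Wnt inhibitor IWP2, with insulin added later to maintain cardiomyocytes. ZNF503 shRNA cells have no library at day 10. The study discarded those samples for poor RNA, which it ascribed to high cell death. RNA was taken from whole cultures. In such bulk samples, fewer cells of a type and less RNA per cell cannot be told apart.

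Gap junctions are channels between neighboring cells, built of connexins, through which ions pass and electrical excitation spreads. GJA1 encodes connexin 43, the main connexin of working ventricular muscle, which many other cell types also use. GJA5 encodes connexin 40, known from atrial muscle, the conduction system and arterial endothelium, and GJC1 encodes connexin 45, known from the early heart and the nodes. Desmosomes hold cells together under mechanical load: the cadherins DSG2 and DSC2 cross the membrane, JUP (plakoglobin) and PKP2 (plakophilin 2) bind their tails, and DSP (desmoplakin) ties the plaque to intermediate filaments. Epithelia build desmosomes from several of the same genes. In heart muscle, desmosomal and adherens junction proteins mix in the area composita, where CTNNA3 (αT-catenin) binds PKP2. Mutations of the desmosomal genes are a known cause of arrhythmogenic cardiomyopathy.

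Of 34 libraries from 15 groups, 30 entered the analysis, 2 libraries per group. Their totals ranged from 9189943 to 90814577 counts and were smallest at day 10 (9189943 to 29549874). At day 10, replicates 1 and 2 of the WT and ZEB2 shRNA cultures were not used, because their 42704 values could not be placed on the 41627 transcript rows. Day 10 therefore rests on their replicates 3 and 4 and on replicates 1 and 2 of NKX2-5 shRNA cells. Comparisons of NKX2-5 shRNA cells with WT or ZEB2 shRNA cells at day 10 thus set different replicate numbers against each other. So do the changes of WT and ZEB2 shRNA cells from earlier days to day 10. If the numbers mark separate runs, these differences cannot be told apart from differences between runs. The targeted gene was at 1.30% ± 0.24 (SD, n = 2) of the WT mean in NKX2-5 shRNA cells at day 6 and at 1.38% ± 1.26 (SD, n = 2) at day 10. It was at 6.98% ± 0.30 (SD, n = 2) in ZNF503 shRNA cells at day 6, and at 58.5% ± 1.8 (SD, n = 2) and 49.5% ± 0.0078 (SD, n = 2) in ZEB2 shRNA cells at days 6 and 10. For ZEB2 the study reported a stronger reduction than these counts show. That value came from real-time PCR, a different measure, at a day its text does not name. Except for ZNF503 in ZEB2 shRNA cells, the targets were also below WT in the other lines at day 6. NKX2-5 was at 3.69% of WT in ZNF503 shRNA cells and at 53.5% in ZEB2 shRNA cells, and ZNF503 was at 8.25% in NKX2-5 shRNA cells and at 138% in ZEB2 shRNA cells. ZEB2 was at 21.5% in NKX2-5 shRNA cells and at 12.4% in ZNF503 shRNA cells, below its level in the ZEB2 knockdown. At day 10 NKX2-5 was at 22.1% and ZNF503 at 322% of WT in ZEB2 shRNA cells. In NKX2-5 shRNA cells ZEB2 was then at 93.9% ± 51.0 (SD, n = 2) and ZNF503 at 109% ± 86 (SD, n = 2). Levels are given as CPM, the counts of a gene relative to all counts of its library, scaled by the TMM method over all libraries, and are compared only between libraries of the same gene. Differences are log2 fold changes ± standard error from edgeR's quasi-likelihood test, with p-values adjusted by Benjamini-Hochberg over all genes tested. A gene was called by 2 rules: 5% FDR with no fold limit, and the thresholds of the study (2-fold and 10% FDR at day 0, 4-fold and 10% at day 2, 8-fold and 1% at days 6 and 10).

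The upstream sequences of GJA1, GJA5 and CTNNA3 are shown because these were the members past the 8-fold threshold in a knockdown or in the WT time course whose promoters were held in the RefSeq table used here (GRCh38.p14). Of the 9 members, 7 had an entry, and PKP2 and GJC1 did not. Each run gives the 250 bases before an annotated start, 5′ to 3′ on the gene's strand. Capitals mark AAGTG or its reverse complement CACTT, the core letters of the motif known for NKX2-5.
GJA1 (plus strand, chr6:121435396-121435645): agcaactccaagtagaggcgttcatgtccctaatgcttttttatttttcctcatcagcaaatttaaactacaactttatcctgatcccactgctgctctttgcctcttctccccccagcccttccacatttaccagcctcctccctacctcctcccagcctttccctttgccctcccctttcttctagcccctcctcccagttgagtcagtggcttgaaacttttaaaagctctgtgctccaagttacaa
GJA5 (minus strand, first of 2 starts, chr1:147773352-147773601): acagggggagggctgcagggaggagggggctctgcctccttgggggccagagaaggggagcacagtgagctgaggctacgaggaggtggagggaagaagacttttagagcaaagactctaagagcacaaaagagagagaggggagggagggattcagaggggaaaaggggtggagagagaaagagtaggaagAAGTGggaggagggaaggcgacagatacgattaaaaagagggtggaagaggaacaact
CTNNA3 (minus strand, first of 2 starts, chr10:67696196-67696445): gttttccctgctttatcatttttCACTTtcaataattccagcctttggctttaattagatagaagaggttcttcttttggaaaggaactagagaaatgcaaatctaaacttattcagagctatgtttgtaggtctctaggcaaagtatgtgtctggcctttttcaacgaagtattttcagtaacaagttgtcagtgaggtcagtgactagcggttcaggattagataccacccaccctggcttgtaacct
The GJA1 window did not hold AAGTG on either strand. The GJA5 window held it at position -58 and the window of the second GJA5 start at position -151, counted from the start. The CTNNA3 window held it at position -227 as CACTT, and the window of the second CTNNA3 start did not hold it. Of the other members, the second window of DSC2 held it at position -26. CACCTG, the core known for ZEB2 and other E-box factors, and its reverse complement CAGGTG were in none of these 3 windows. DSP held CACCTG on either strand at positions -178 and -85, DSG2 at -232 and -116, DSC2 at -156 in its first window, and JUP at -54 and -43 in its second. Over all 35116 promoters of the table, 37.6% held AAGTG and 17.5% held CACCTG on either strand, so a match in these windows was common.

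**Figure D1:**
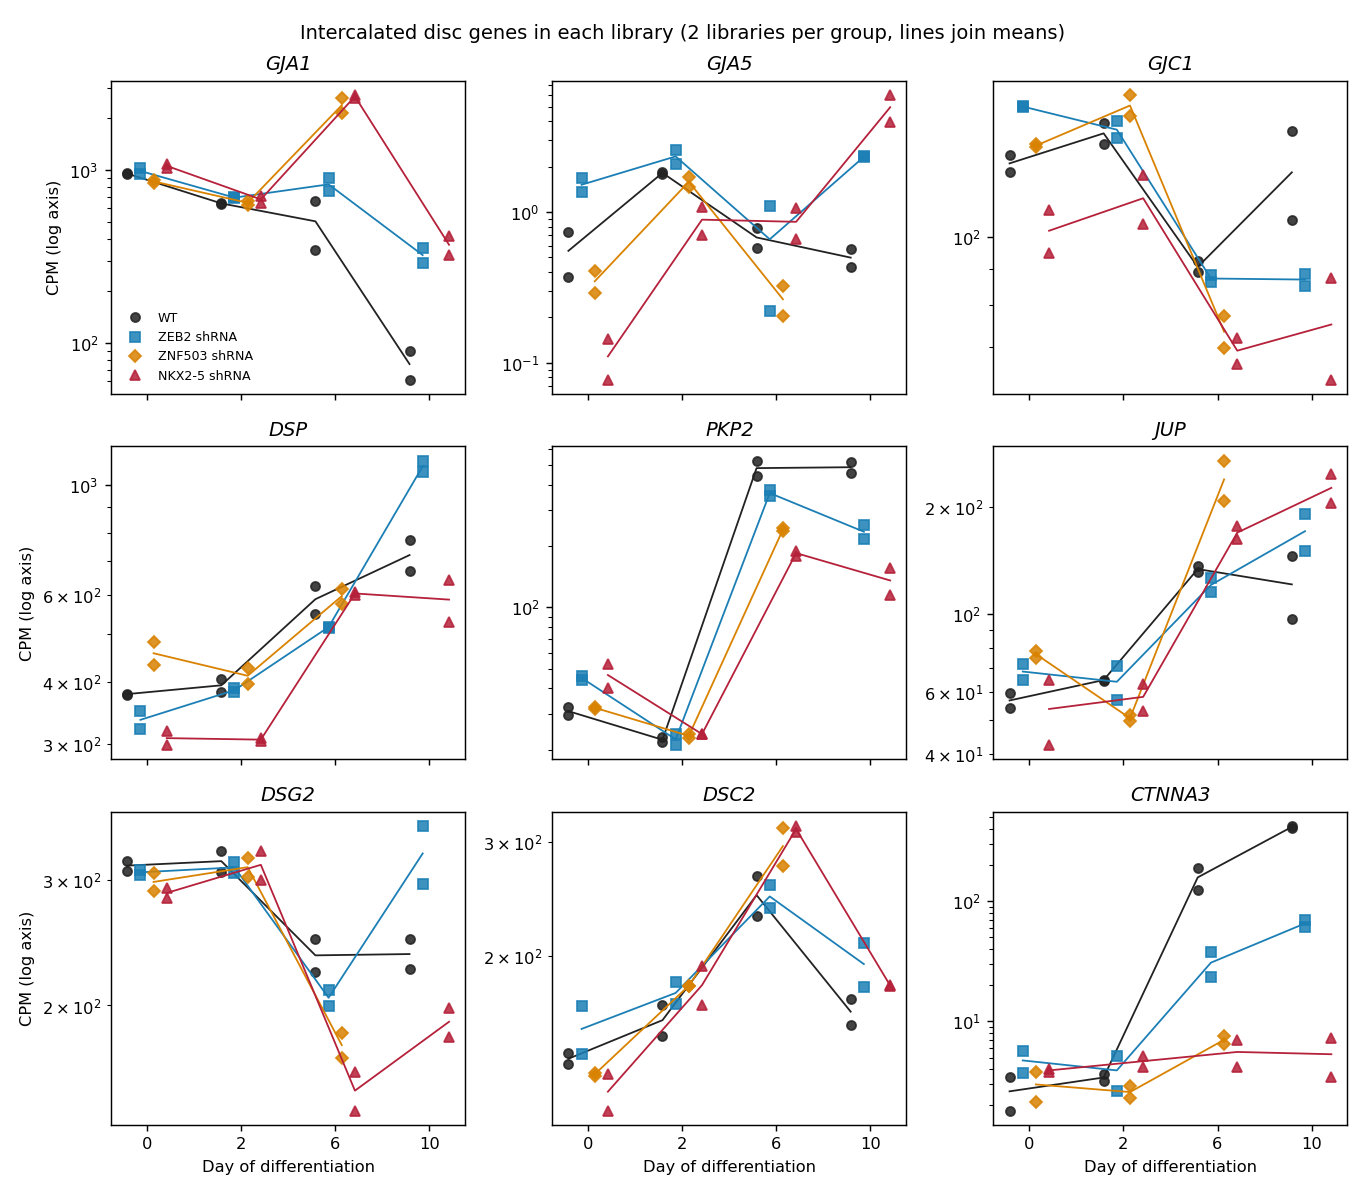
CPM of each member (log axis) against the day of differentiation, with a symbol for each library, colored by cell line, and lines joining the means of 2 libraries per group. CTNNA3 separated the lines most widely, with WT libraries at 406 and 421 CPM and NKX2-5 shRNA libraries at 3.43 and 7.23 CPM at day 10, whereas GJC1 was between 62.9 and 158 CPM in every library.

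The first question was how these genes changed as WT cells left the ESC state. CTNNA3 and PKP2 increased most, and GJA1 decreased. CTNNA3 was at 1.81 and 3.43 CPM at day 0, 3.22 and 3.62 at day 2, 190 and 125 at day 6, and 406 and 421 at day 10. The libraries of days 6 and 10 lay far above those of days 0 and 2 and did not overlap with each other. CTNNA3 rose by 5.93 ± 0.29 on the log2 scale from day 0 to day 6 (adjusted p = 7.9e-08, edgeR) and by a further 1.42 ± 0.22 to day 10 (adjusted p = 0.00042). PKP2 was at 29.6 and 32.3 CPM at day 0 and at 23.0 and 21.8 at day 2. It then stood at 526 and 440 CPM at day 6 and at 460 and 516 at day 10, so that the day 6 and day 10 libraries overlapped. PKP2 rose by 3.99 ± 0.13 from day 0 to day 6 (15.9-fold, adjusted p = 5.4e-09), and its difference between days 6 and 10 was 0.05 ± 0.12 (adjusted p = 0.76).

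The other desmosomal genes changed less in WT cells. DSP was at 379 and 377 CPM at day 0 and at 549 and 625 at day 6, and rose by 0.66 ± 0.10 (adjusted p = 0.00034). JUP was at 59.5 and 54.1 CPM at day 0 and at 131 and 136 at day 6, and rose by 1.26 ± 0.17 (adjusted p = 0.0001). DSC2 was at 135 and 141 CPM at day 0, at 230 and 266 at day 6 and at 171 and 156 at day 10. It rose by 0.87 ± 0.11 to day 6 (adjusted p = 5.4e-05) and then fell by 0.57 on the log2 scale, with a standard error of 0.11, to day 10 (adjusted p = 0.0012), so DSC2 peaked at day 6 among the days sampled. DSG2, which pairs with DSC2 in the desmosome, went the other way, from 309 and 319 CPM at day 0 to 223 and 248 at day 6 and 248 and 225 at day 10. The log2 fold change of DSG2 from day 0 to day 6 was -0.39 ± 0.10 (adjusted p = 0.0058), and this call was lost without replicate 2 of WT cells at day 0 (adjusted p = 0.055).

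Among the connexins of WT cells, GJA1 was at 953 and 957 CPM at day 0, 639 and 645 at day 2, 346 and 665 at day 6, and 89.8 and 61.2 at day 10. The day 10 libraries were the lowest, and the spread was widest at day 6. GJA1 fell from day 6 to day 10 (log2 fold change -2.70 ± 0.27, adjusted p = 2.4e-05) and was 12.1-fold lower at day 10 than at day 0 (-3.59 ± 0.28, adjusted p = 1.1e-06). GJC1 was at 123 and 130 CPM at day 0, at 92.3 and 89.0 at day 6 and at 106 and 141 at day 10. Its log2 fold change was -0.46 ± 0.14 to day 6 (adjusted p = 0.014) and 0.47 ± 0.14 from day 6 to day 10 (adjusted p = 0.014). The first of these calls was lost without replicate 2 of day 0 or of day 6 (adjusted p up to 0.08), and the second without replicate 2 of day 6 or replicate 4 of day 10 (adjusted p up to 0.084). GJA5 was scarce in every WT library, between 0.374 and 1.84 CPM, which was 4 to 56 reads. Its log2 fold change from day 0 to day 2 was 1.75 ± 0.46 (adjusted p = 0.011), a call lost without replicate 1 of day 0 or either replicate of day 2 (adjusted p up to 0.12).

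From day 0 to day 2, 2 of the 9 members passed 5% FDR in WT cells (44.1% of genes). From day 0 to day 6, 8 of the 9 members passed 5% FDR in WT cells, where 60.9% of all genes tested did, and 2 passed 8-fold and 1% FDR, where 10.2% of genes did. From day 0 to day 10, 7 members passed 5% FDR (73.8% of genes) and 3 passed the 8-fold threshold (15.5% of genes), namely CTNNA3, PKP2 and GJA1. The summed level of 8 cardiomyocyte markers moved with CTNNA3 in WT cells, where it lay between 33962 and 41659 CPM on day 6 and between 69160 and 78477 CPM on day 10, with no WT marker of that list at or under 3 counts in both libraries on either day. The summed level of 8 epithelial markers was 1463 to 1547 CPM at day 0, 2619 to 2728 at day 6 and 578 to 733 at day 10. The rise of this sum to day 6 was not shared by most of its genes. From day 0 to day 6, 3 of the markers were higher and 4 lower at 5% FDR (median log2 fold change -0.33). The part of these cell types in the changes was not tested.

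The second question was whether the knockdowns changed these genes before and during differentiation. At days 0 and 2, GJA5 was the only member past 5% FDR that differed from WT by 2-fold or more. The targeted genes were scarce in WT cells at day 0, with means of 0.316 (NKX2-5), 0.118 (ZEB2) and 0.106 CPM (ZNF503). At day 2 these means were 0.219, 17.9 and 1.53 CPM. In its own line each target was at 43.0%, 118% and 127% of WT at day 0, in the same order. At day 2 it was at 24.3%, 66.4% and 90.1%. The part of the knockdown in these early differences was not tested. Of the 9 members, 4 passed 5% FDR under NKX2-5 shRNA at day 0 (15.9% of genes), 1 under ZEB2 shRNA (3.93%) and 0 under ZNF503 shRNA (7.53%). Under NKX2-5 shRNA GJA5, GJC1 and DSP were lower and PKP2 was higher, and under ZEB2 shRNA PKP2 was higher. PKP2 at day 0 was at 40.2 to 52.9 CPM in the 4 libraries of these knockdowns, above 29.6 and 32.3 in WT cells, with log2 fold changes of 0.57 ± 0.13 (adjusted p = 0.012) and 0.51 ± 0.13 (adjusted p = 0.047). The first was lost without replicate 2 of NKX2-5 shRNA cells or either WT replicate (adjusted p up to 0.13), and the second without any one of its 4 libraries (adjusted p up to 0.31). At day 2 the counts were 3 under NKX2-5 shRNA (26.7%; GJA5, GJC1 and DSP, all lower), 0 under ZEB2 shRNA (0.49%) and 1 under ZNF503 shRNA (26.9%; JUP, lower). At the fold thresholds of the study, 1, 1 and 0 members passed at day 0 (4.03%, 2.2% and 2.56% of genes, in the same order), and 0 in each knockdown at day 2 (1.19%, 0.133% and 2.8%). Where edgeR gave 0, DESeq2 also gave 0, and an unadjusted p under 0.05 was reached by 0 members in ZEB2 shRNA cells at day 2 and by 2 members (DSP and JUP) in ZNF503 shRNA cells at day 0. DSP was the member that stayed past the threshold with any library left out. It was at 308 and 304 CPM in NKX2-5 shRNA cells and at 382 and 406 CPM in WT cells at day 2, a log2 fold change of -0.40 ± 0.08 (adjusted p = 0.002). GJA5 passed the 2-fold threshold of day 0 in both directions, with 0.077 and 0.143 CPM under NKX2-5 shRNA, 1.68 and 1.36 under ZEB2 shRNA, and 0.374 and 0.733 in WT cells. These values rest on 3 to 150 reads. The log2 fold changes were -2.27 ± 0.56 (adjusted p = 0.018) and 1.43 ± 0.41 (adjusted p = 0.078), and the first lost 5% FDR without replicate 1 of NKX2-5 shRNA cells or replicate 2 of WT cells (adjusted p up to 0.18). The second lost 10% FDR by DESeq2 and without any one of its 4 libraries (adjusted p up to 0.42). CTNNA3 was between 1.81 and 5.73 CPM in all 16 libraries of days 0 and 2, with no knockdown past 5% FDR.

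**Figure D2:**
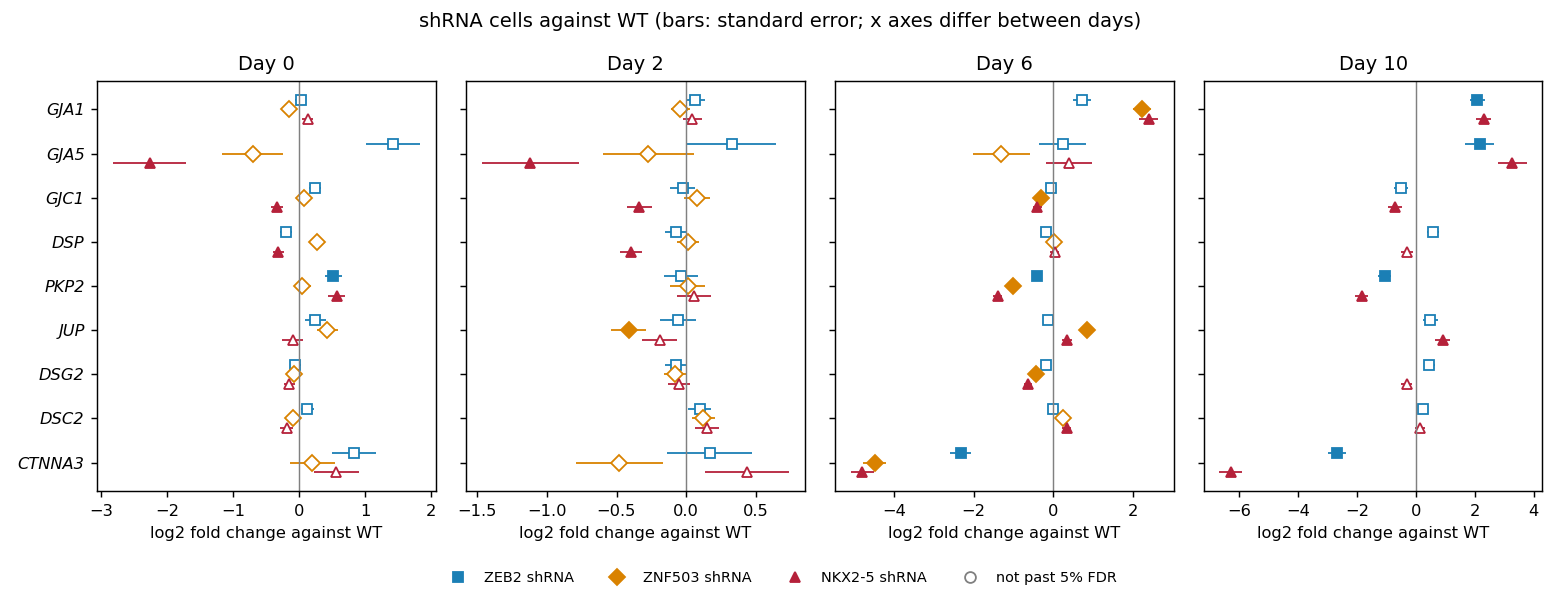
Log2 fold change of each member against WT at days 0, 2, 6 and 10 (x axis, whose range differs between days), with bars for the standard error and a symbol for each shRNA line, filled where the adjusted p was under 5% FDR. At day 6 CTNNA3 was at -4.80, -4.49 and -2.33 under NKX2-5, ZNF503 and ZEB2 shRNA, while GJA1 was at 2.40, 2.23 and 0.72.

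At day 6 CTNNA3 and PKP2 were lower than in WT cells in all 3 knockdowns, and GJA1 was higher in NKX2-5 and ZNF503 shRNA cells. CTNNA3 was at 190 and 125 CPM in WT cells, 38.0 and 23.6 under ZEB2 shRNA, 6.51 and 7.54 under ZNF503 shRNA, and 4.19 and 6.95 under NKX2-5 shRNA. The ZEB2 shRNA libraries lay between those of WT and of the other knockdowns without overlap, and the ZNF503 and NKX2-5 shRNA libraries overlapped. CTNNA3 was 27.8-fold lower in NKX2-5 shRNA cells (log2 fold change -4.80 ± 0.30, adjusted p = 8.7e-08), 22.4-fold lower in ZNF503 shRNA cells (-4.49 ± 0.30, adjusted p = 2.1e-07) and 5.03-fold lower in ZEB2 shRNA cells (-2.33 ± 0.26, adjusted p = 0.00011). The difference between NKX2-5 and ZEB2 shRNA cells was itself -2.47 ± 0.28 (adjusted p = 1.6e-05), and that between NKX2-5 and ZNF503 shRNA cells was -0.31 ± 0.29 (adjusted p = 0.5). In NKX2-5 and ZNF503 shRNA cells CTNNA3 at day 6 (4.19 to 7.54 CPM) was close to its range at day 0 over the lines (1.81 to 5.73 CPM), a difference that was not tested.

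PKP2, which CTNNA3 binds, was at 526 and 440 CPM in WT cells at day 6, 376 and 353 under ZEB2 shRNA, 237 and 246 under ZNF503 shRNA, and 180 and 190 under NKX2-5 shRNA. The groups did not overlap, and the order of the means was that of CTNNA3, whose ZNF503 and NKX2-5 shRNA libraries overlapped. The log2 fold change was -1.39 ± 0.12 in NKX2-5 shRNA cells (adjusted p = 1e-06) and -1.01 ± 0.11 in ZNF503 shRNA cells (adjusted p = 1.6e-05). In ZEB2 shRNA cells it was -0.40 ± 0.11 (adjusted p = 0.039), a call lost with all libraries in the fit, and without either ZEB2 shRNA replicate or replicate 1 of WT cells (adjusted p up to 0.32). Unlike CTNNA3, PKP2 in all 3 knockdowns was above its level of day 0, which was 29.6 to 52.9 CPM over the lines.

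The other plaque genes and the cadherins differed little or moved in other directions at day 6. DSP was at 515 to 625 CPM in all 8 libraries, with log2 fold changes of 0.03 ± 0.10, 0.02 ± 0.10 and -0.18 ± 0.10 under NKX2-5, ZNF503 and ZEB2 shRNA (adjusted p = 0.82, 0.91 and 0.33). JUP was at 271 and 208 CPM in ZNF503 shRNA cells, above WT (131 and 136), and was 1.79-fold higher (0.84 ± 0.13, adjusted p = 0.00017). JUP was also higher in ZNF503 than in ZEB2 shRNA cells (126 and 115 CPM), where the log2 difference of ZEB2 against ZNF503 shRNA cells was -0.98 ± 0.13 (adjusted p = 6.5e-05). In NKX2-5 shRNA cells JUP was at 162 and 177 CPM, and its call against WT (0.34 ± 0.13, adjusted p = 0.045) was lost without any of the 4 libraries (adjusted p up to 0.24). DSG2 was at 142 and 161 CPM in NKX2-5 shRNA cells and at 169 and 183 in ZNF503 shRNA cells, below WT (223 and 248). Its log2 fold changes were -0.64 ± 0.11 (adjusted p = 0.00045) and -0.42 ± 0.11 (adjusted p = 0.0064). DSC2, its partner, was at 318 and 311 CPM in NKX2-5 shRNA cells and at 230 and 266 in WT cells, a log2 fold change of 0.33 ± 0.11 (adjusted p = 0.029) that was lost without either NKX2-5 shRNA replicate or replicate 1 of WT cells (adjusted p up to 0.2).

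GJA1 at day 6 was at 2712 and 2627 CPM in NKX2-5 shRNA cells and at 2140 and 2610 in ZNF503 shRNA cells, against 346 and 665 in WT cells and 756 and 899 in ZEB2 shRNA cells. Connexin 43 transcripts were thus 5.26-fold higher in NKX2-5 shRNA cells (2.40 ± 0.24, adjusted p = 4.6e-06) and 4.68-fold higher in ZNF503 shRNA cells (2.23 ± 0.24, adjusted p = 8.9e-06), above the level of any library at day 0 (848 to 1084 CPM). In ZEB2 shRNA cells the log2 fold change was 0.72 ± 0.23 and did not pass (adjusted p = 0.065). Both libraries were above both WT libraries, but 7 of the 9 members lay apart from WT in this comparison. The share of all genes that did so was not counted. NKX2-5 and ZEB2 shRNA cells differed by 1.68 ± 0.23 (adjusted p = 8.6e-05). GJC1 was at 71.9 and 66.3 CPM in NKX2-5 shRNA cells, 77.2 and 69.7 in ZNF503 shRNA cells and 92.3 and 89.0 in WT cells. Its log2 fold changes were -0.40 ± 0.11 (adjusted p = 0.0099) and -0.31 ± 0.11 (adjusted p = 0.032). The first was lost without replicate 2 of NKX2-5 shRNA cells or replicate 1 of WT cells, and the second without replicate 2 of ZNF503 shRNA cells or either WT replicate (adjusted p up to 0.12 and 0.13). GJA5 was at 0.204 to 1.10 CPM in every library of day 6, from 3 to 66 reads, and no knockdown passed 5% FDR against WT at this depth. The difference between NKX2-5 and ZNF503 shRNA cells was 1.70 (adjusted p = 0.11), which the exact test of edgeR called at 5% FDR, and that between ZEB2 and ZNF503 shRNA cells was 1.54 (adjusted p = 0.084), which was called with no filter or with all libraries in the fit, and was -0.25 without replicate 1 of ZEB2 shRNA cells.

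In all, 7 of the 9 members passed 5% FDR at day 6 under NKX2-5 shRNA, 6 under ZNF503 shRNA and 2 under ZEB2 shRNA, where 49.1%, 55.7% and 11% of genes did. CTNNA3 was the only member past 8-fold and 1% FDR in NKX2-5 and in ZNF503 shRNA cells, where 4.71% and 3.91% of genes passed, and 0 members did in ZEB2 shRNA cells (0.462%). The 3 comparisons share the WT libraries. Between knockdowns at day 6, 7 members passed 5% FDR for NKX2-5 against ZEB2 (44.4% of genes), 2 for NKX2-5 against ZNF503 (14.7%) and 4 for ZEB2 against ZNF503 (49.2%). Summed cardiomyocyte markers ran in the order of the mean levels of CTNNA3 and PKP2. They were at 33962 to 41659 CPM in WT cells, 16274 to 17426 in ZEB2 shRNA cells, 9910 to 10363 in ZNF503 shRNA cells and 7318 to 7463 in NKX2-5 shRNA cells. All 8 markers of that list were lower in NKX2-5 and in ZNF503 shRNA cells, and 6 in ZEB2 shRNA cells. Their median log2 fold changes were -8.82, -7.21 and -1.17 in the same order. In NKX2-5 and ZNF503 shRNA cells the median marker thus fell further than the sum. Summed endoderm and hepatic markers were highest in the 2 lines with the most GJA1, at 7245 to 7249 CPM in NKX2-5 and 5130 to 5325 in ZNF503 shRNA cells. GJA1 did not differ detectably between these lines (0.17 ± 0.22, adjusted p = 0.65, edgeR). The sums were 511 to 1080 CPM in WT cells and 486 to 689 in ZEB2 shRNA cells. These overlapped, whereas GJA1 was higher in both ZEB2 shRNA libraries than in WT. None of these 6 markers was at or under 3 counts. Summed epithelial markers were highest in ZNF503 shRNA cells (3488 to 3740 CPM), where JUP was highest, and lowest in WT cells (2619 to 2728 CPM). JUP itself was lowest in ZEB2 shRNA cells (126 and 115 CPM, against 131 and 136 in WT cells). The part of these cell types in the differences was not tested.

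**Figure D3:**
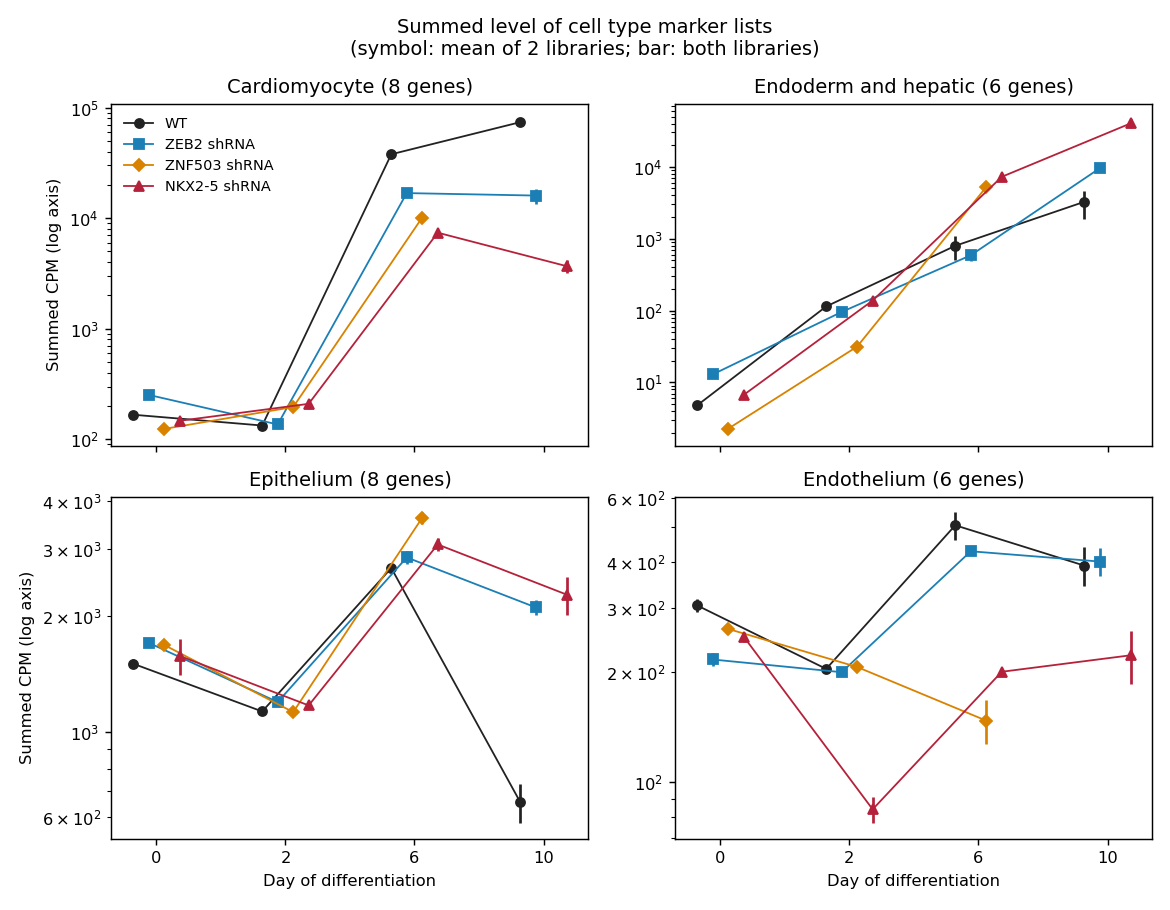
Summed CPM (log axis) of 4 marker lists against the day of differentiation, with a symbol for the mean of 2 libraries, a bar from one library to the other, and a color for each line. At day 10 cardiomyocyte markers summed to 69160 to 78477 CPM in WT cells and 3165 to 4189 CPM in NKX2-5 shRNA cells, and endoderm and hepatic markers to 1868 to 4646 CPM and 34600 to 45901 CPM. A sum follows its most abundant genes and can move against most of its list.

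At day 10, CTNNA3 and PKP2 were lower and GJA1 and GJA5 higher in both knockdowns studied. CTNNA3 was at 406 and 421 CPM in WT cells, 69.4 and 61.0 under ZEB2 shRNA, and 3.43 and 7.23 under NKX2-5 shRNA, with no overlap. It was 77.4-fold lower in NKX2-5 shRNA cells (-6.27 ± 0.38, adjusted p = 0.00017) and 6.38-fold lower in ZEB2 shRNA cells (-2.67 ± 0.32, adjusted p = 0.0035), and the 2 knockdowns differed by -3.60 ± 0.34 (adjusted p = 0.0017). Without replicate 2 of NKX2-5 shRNA cells these log2 differences from WT and from the ZEB2 knockdown were -6.90 and -4.23. PKP2 was at 460 and 516 CPM in WT cells, 254 and 216 under ZEB2 shRNA, and 156 and 116 under NKX2-5 shRNA, again without overlap. Its log2 fold changes were -1.84 ± 0.23 (adjusted p = 0.0011) in NKX2-5 shRNA cells and -1.06 ± 0.22 (adjusted p = 0.02) in ZEB2 shRNA cells. The latter was lost without any one of the 4 libraries, with log2 fold changes of -1.17 to -0.94 and an adjusted p of up to 0.21.

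GJA1 at day 10 was at 322 and 418 CPM under NKX2-5 shRNA, 292 and 353 under ZEB2 shRNA and 89.8 and 61.2 in WT cells. Both knockdowns lay above WT and overlapped with each other. Summed epicardium and fibroblast markers were also higher, at 996 to 1958 CPM in NKX2-5 shRNA cells, 1283 to 1292 under ZEB2 shRNA and 327 to 373 in WT cells. Of the 5 markers, 2 and 3 were higher at 5% FDR and 0 and 1 lower, where 43.9% and 18.2% of all genes passed in either direction. The count in NKX2-5 shRNA cells was thus near the share of all genes. Endoderm and hepatic markers in the ZEB2 knockdown summed to 8711 to 10397 CPM. The part of these cell types in the GJA1 difference was not tested. The log2 fold change was 2.30 ± 0.26 (adjusted p = 0.00084) in NKX2-5 shRNA cells and 2.09 ± 0.26 (adjusted p = 0.004) in ZEB2 shRNA cells. GJA5 was at 5.96 and 3.97 CPM in NKX2-5 shRNA cells (125 and 84 reads), 2.35 and 2.30 in ZEB2 shRNA cells (76 and 54 reads), and 0.567 and 0.43 in WT cells (11 and 4 reads). It was 9.67-fold higher in NKX2-5 shRNA cells (3.27 ± 0.50, adjusted p = 0.0023) and 4.49-fold higher in ZEB2 shRNA cells (2.17 ± 0.49, adjusted p = 0.025). The call in ZEB2 shRNA cells was lost without any one of the 4 libraries, with log2 fold changes of 2.03 to 2.41 and an adjusted p of up to 0.16. Of 6 endothelial markers, 5 were higher at 5% FDR under NKX2-5 shRNA and 3 under ZEB2 shRNA. PECAM1, an endothelial surface protein, was at 13.4 to 22.2 CPM in NKX2-5 shRNA cells, 2.75 to 3.28 in ZEB2 shRNA cells and 0.108 to 0.825 in WT cells. The remaining endothelial marker of NKX2-5 shRNA cells, KDR, was lower, at 46.0 to 95.4 CPM against 336 to 411 in WT cells, and the summed level of the list was 186 to 259, 366 to 438 and 344 to 439 CPM in the same groups as for PECAM1. The part of endothelial cells in the GJA5 difference was not tested.

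Of the remaining desmosomal genes at day 10, DSP and DSG2 differed between the knockdowns. DSP was at 1059 and 1118 CPM in ZEB2 shRNA cells, 773 and 669 in WT cells, and 529 and 643 in NKX2-5 shRNA cells. DSG2 was at 297 and 357 CPM in ZEB2 shRNA cells, 248 and 225 in WT cells, and 181 and 199 in NKX2-5 shRNA cells. The groups did not overlap for either gene. With 2 libraries per group this is weak evidence, since all 9 members lay apart from WT in both knockdowns at day 10. The share of all genes without overlap was not counted. Neither knockdown passed against WT (adjusted p = 0.28 and 0.092 for DSP, and 0.22 and 0.13 for DSG2, in NKX2-5 and ZEB2 shRNA cells). With all libraries in the fit these differences did pass 5% FDR (adjusted p up to 0.015), and that of DSP in ZEB2 shRNA cells also passed by DESeq2 (adjusted p = 0.019). NKX2-5 shRNA cells differed from ZEB2 shRNA cells by -0.88 ± 0.21 for DSP (adjusted p = 0.026) and by -0.77 ± 0.19 for DSG2 (adjusted p = 0.03). Both calls were lost without either ZEB2 shRNA replicate (adjusted p up to 0.22 and 0.28). JUP was at 248 and 205 CPM under NKX2-5 shRNA, 192 and 150 under ZEB2 shRNA, and 96.3 and 146 in WT cells. Its log2 fold change of 0.91 ± 0.26 in NKX2-5 shRNA cells (adjusted p = 0.026) was lost without replicate 3 of WT cells (adjusted p = 0.13). GJC1 was at 62.9 and 87.6 CPM in NKX2-5 shRNA cells and at 106 and 141 in WT cells. The log2 fold change of GJC1 was -0.71 ± 0.23 (adjusted p = 0.042), which was lost without replicate 1 of NKX2-5 shRNA cells or either WT replicate (adjusted p up to 0.22). DSC2 was at 156 to 210 CPM in all 6 libraries, with log2 fold changes of 0.14 ± 0.18 and 0.24 ± 0.18 (adjusted p = 0.56 and 0.4).

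At day 10, 6 of the 9 members passed 5% FDR under NKX2-5 shRNA and 4 under ZEB2 shRNA, where 43.9% and 18.2% of genes did. CTNNA3 and GJA5 passed 8-fold and 1% FDR under NKX2-5 shRNA (7.31% of genes), and 0 members did under ZEB2 shRNA (1.46%). GJA5 lost that call, but not 5% FDR, without replicate 1 of NKX2-5 shRNA cells (log2 fold change 2.94) or either WT replicate (adjusted p up to 0.023). Between the 2 knockdowns, 4 members passed 5% FDR (21.3% of genes), and CTNNA3 passed 8-fold and 1% FDR (1.95%), a call lost without replicate 3 of ZEB2 shRNA cells (adjusted p = 0.015). Summed cardiomyocyte markers at day 10 were at 69160 to 78477 CPM in WT cells, 13516 to 18496 in ZEB2 shRNA cells and 3165 to 4189 in NKX2-5 shRNA cells. Against WT, all 8 markers were lower at 5% FDR in NKX2-5 shRNA cells (median log2 fold change -6.34) and 3 in ZEB2 shRNA cells (-1.80). From day 6 to day 10 the sum fell in NKX2-5 shRNA cells. Yet 7 of its markers were higher and 1 lower at 5% FDR (median 3.55), where 59% of genes passed. Summed epithelial markers were at 578 to 733 CPM in WT cells, 2016 to 2204 in ZEB2 shRNA cells and 2021 to 2535 in NKX2-5 shRNA cells, and all 8 of these genes, which include keratins that epithelial desmosomes anchor, were higher at 5% FDR in both knockdowns. Summed blood markers were at 1929 to 2263 CPM in NKX2-5 shRNA cells, 9.92 to 13.8 in ZEB2 shRNA cells and 15.1 to 87.4 in WT cells. The part of these cell types in the differences of the 9 genes was not tested.

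**Figure D4:**
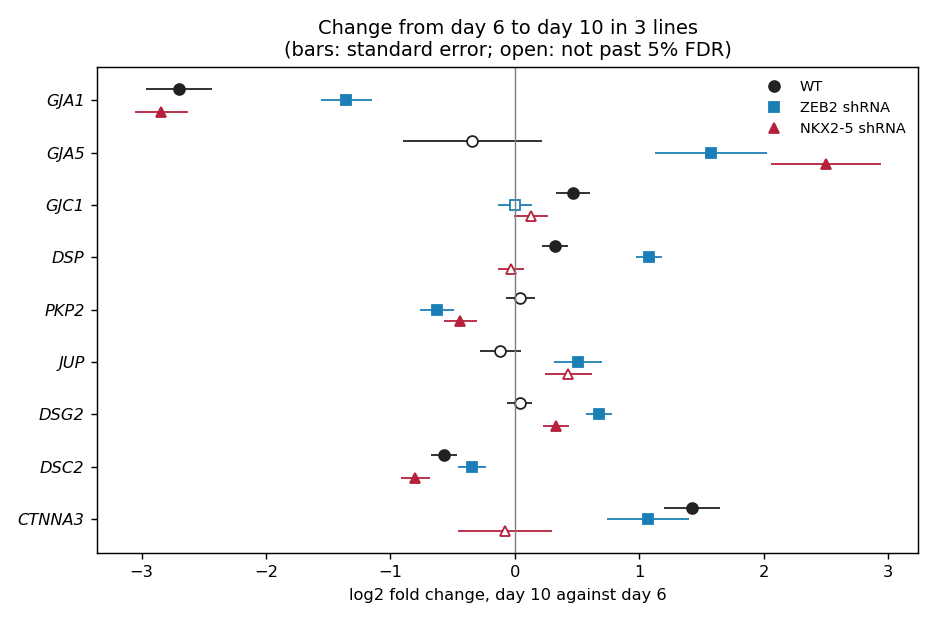
Log2 fold change from day 6 to day 10 (x axis) of each member in WT, ZEB2 shRNA and NKX2-5 shRNA cells, with bars for the standard error and filled symbols past 5% FDR. GJA1 was at -2.70, -1.36 and -2.84 in these lines, and DSP at 0.33, 1.08 and -0.03.

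The change from day 6 to day 10 was then compared between lines, in a fit of all 30 libraries with a term for the difference between changes; the WT values beside it come from the fit of WT libraries. GJA1 fell in each line, with log2 changes of -2.70 ± 0.27 in WT cells, -2.84 ± 0.22 in NKX2-5 shRNA cells (adjusted p = 7.1e-10) and -1.36 ± 0.20 in the ZEB2 knockdown (adjusted p = 9.7e-06). GJA1 in NKX2-5 shRNA cells thus went from 2712 and 2627 CPM to 322 and 418, and the change did not differ detectably from that of WT cells (-0.12 ± 0.29, adjusted p = 0.8). GJA5 rose by 2.50 ± 0.44 in NKX2-5 shRNA cells (adjusted p = 5.3e-05), from 0.662 and 1.06 to 5.96 and 3.97 CPM, and by 1.58 ± 0.45 in ZEB2 shRNA cells (adjusted p = 0.0051), the latter call lost without replicate 2 of day 6, which held 3 reads (1.04, adjusted p = 0.067), and at 3.34 without replicate 1 of day 6. The change of GJA5 in NKX2-5 shRNA cells exceeded that of WT cells by 2.86 ± 0.71 (adjusted p = 0.0033).

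DSP and DSG2 rose from day 6 to day 10 in ZEB2 shRNA cells, DSP from 517 and 515 to 1059 and 1118 CPM (1.08 ± 0.10, adjusted p = 3.6e-08) and DSG2 from 200 and 210 to 297 and 357 CPM (0.68 ± 0.10, adjusted p = 9.7e-06). The change of DSP in ZEB2 shRNA cells exceeded that in WT cells by 0.77 ± 0.15 (adjusted p = 0.00092). PKP2 fell in ZEB2 shRNA cells, by 0.63 on the log2 scale (SE 0.14, adjusted p = 0.00048), from 376 and 353 to 254 and 216 CPM. DSC2 fell by 0.80 in NKX2-5 shRNA cells (SE 0.11, adjusted p = 4.3e-06), from 318 and 311 to 179 and 180 CPM, as it did in WT cells. The log2 change of CTNNA3 was -0.08 ± 0.38 in NKX2-5 shRNA cells (adjusted p = 0.88) and 1.07 ± 0.33 in ZEB2 shRNA cells (adjusted p = 0.0083), the latter lost without replicate 2 of day 6 or replicate 3 of day 10 (adjusted p up to 0.13). From day 6 to day 10, 5 of the 9 members passed 5% FDR under NKX2-5 shRNA, 8 under ZEB2 shRNA and 5 in WT cells, where 59%, 56.1% and 57.5% of genes did. The change differed from that of WT cells for 2 members under NKX2-5 shRNA and 4 under ZEB2 shRNA (36% and 15.8% of genes). Under ZEB2 shRNA, GJA1, DSG2 and PKP2 no longer passed with only the libraries of days 6 and 10 in the fit.

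Other genes of the same junctions were read from lists of 18 other connexins, 11 other desmosome genes and 17 genes of the adherens junction and the rest of the disc. In NKX2-5 shRNA cells at day 6, 2 connexins were higher and 1 lower at 5% FDR among the 6 tested, and 3 desmosome genes were higher and 1 lower among 5. Of 16 adherens and disc genes tested, 8 were lower and 2 higher, where 49.1% of all genes passed in either direction. At day 10 in the same cells, 4 connexins were higher and 1 lower among 5, 4 desmosome genes were higher and 0 lower among 5, and 7 adherens and disc genes were lower and 0 higher among 16, where 43.9% of all genes passed, so the share of the adherens and disc genes was that of the background. The median log2 fold change of these lists at day 10 was 3.41, 0.78 and -0.73, beside 0.03 over all genes tested. A scarce gene can pass the filter on low counts through the groups where it is high. Only 5 of the 18 connexins were tested, so their counts and median depend in part on the filter. In ZEB2 shRNA cells at day 10 the counts were 1 higher and 1 lower connexin among 5, 2 higher and 0 lower desmosome genes among 5, and 0 higher and 4 lower adherens and disc genes among 16, where 18.2% of all genes passed.

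Single genes of these lists differed from their neighbors in the same structures. GJA3 (connexin 46) was at 1.82 to 2.04 CPM in WT cells at day 6 and 81.4 to 102 at day 10, at 3.03 to 5.81 in ZEB2 shRNA cells at day 10, and at 0 to 1.23 in NKX2-5 shRNA cells at day 10, with 0 reads in both NKX2-5 shRNA libraries of day 6, which allows up to 3 reads per library. GJA4 (connexin 37), known from endothelium like GJA5, was at 3.21 to 3.77 CPM in NKX2-5 shRNA cells, 1.11 to 1.17 in ZEB2 shRNA cells and 0.258 to 0.43 in WT cells at day 10. GJB1 (connexin 32), known from liver, was at 49.8 to 68.5 CPM in NKX2-5 shRNA cells, 14.8 to 15.8 in ZEB2 shRNA cells and 1.51 to 4.90 in WT cells at day 10. PPL, a plakin of epithelial desmosomes, was at 43.0 to 94.0 CPM in NKX2-5 shRNA cells and 5.41 to 6.45 in WT cells at day 10. Within the α-catenins, CTNNA2 was at 1.70 to 1.99 CPM in NKX2-5 shRNA cells and 41.7 to 58.5 in WT cells at day 6, whereas CTNNA1, the form found in most cells, was at 556 to 572 and 378 to 399 CPM. XIRP1, an actin-binding protein of the disc, was at 1.03 to 1.40 CPM in NKX2-5 shRNA cells, 1.38 to 3.41 in ZNF503 shRNA cells, 56.7 to 69.4 in ZEB2 shRNA cells and 130 to 151 in WT cells at day 6. DES, the muscle intermediate filament that DSP anchors, was at 0.735 to 1.28, 0.712 to 0.81, 2.58 to 3.98 and 15.9 to 16.2 CPM in the same order. CDH2, the cadherin of the adherens junction, was at 948 to 957 CPM in NKX2-5 shRNA cells and at 504 to 566 CPM in WT cells at day 6.

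The genes with the most similar pattern to a member were found by Pearson's r of log2(CPM + 1) over the 15 group means, among 17031 genes. The groups share WT and culture conditions, so r is a description. PKP2 was most like BAMBI, CDH13 and TNNC1 (r = 0.988, 0.984 and 0.981), of which TNNC1 encodes cardiac troponin C. CTNNA3 was most like SGPP2 (r = 0.989), and GJA1 most like SPTSSB (r = 0.947). DSC2 was most like MTERF4 (r = 0.966), and DSG2 like LOC100288637 and then MKI67, a gene of dividing cells (r = 0.962 and 0.939). DSP was most like NINL (r = 0.948), GJC1 like CDH4 (r = 0.944) and GJA5 like OLFM3 (r = 0.905). Among the members themselves, the highest r were those of PKP2 with CTNNA3 (0.817), GJC1 with DSG2 (0.81) and PKP2 with JUP (0.803), and the lowest those of GJC1 with JUP (-0.843), DSG2 with JUP (-0.783) and DSG2 with DSC2 (-0.757). GJA1 and CTNNA3 had an r of -0.674.

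On GRCh37, GJA1 lies at chr6:121756741-121770873 and DSP at chr6:7541571-7586947 on the plus strand, and GJA5 at chr1:147228332-147245466 and GJC1 at chr17:42875816-42908184 on the minus strand. PKP2 lies at chr12:32943679-33049732, JUP at chr17:39910856-39943183, DSC2 at chr18:28638806-28682485 and CTNNA3 at chr10:67672215-69523395, all on the minus strand, and DSG2 lies at chr18:29078140-29128971 on the plus strand. The counts cover their annotated RefSeq transcript regions. Reads from an overlapping gene could enter a count, since strand use in the counting was not given. Annotated exons of GJA5 share 643 bases, of DSG2 186, of CTNNA3 177 and of DSP 81 with a gene on the opposite strand, and those of DSC2 share 554 and of PKP2 424 with a noncoding gene on the same strand. GJA1 has a processed pseudogene, GJA1P1, with which it may share reads.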

How the data were processed

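RNA from WT, NKX2-5, ZEB2 and ZNF503 shRNA cells was sequenced with a stranded total RNA kit. The values are raw counts, deposited by the authors with no normalization. Per their methods, paired-end reads were mapped to hg19 and counted per RefSeq gene region with RSeQC, and the submitters' processing notes name TopHat2 2.0.14, Bowtie2 2.2.1.0 and SAMtools 0.1.19.0. The range of library totals is in the report, and the limit given for a count of 0 covers counting error only. Of 41627 accessions, 40285 (96.8%) matched a gene symbol, and the row with the largest total was kept per gene. A median rank correlation with replicate 3 of 0.00792 to 0.0131, against 0.984 and 0.993 for replicate 4, showed that the columns of 4 day 10 libraries did not follow the row order, and they were left out.

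edgeR 4.0.16 (R 4.3.3) was run with filterByExpr, TMM factors and the quasi-likelihood test, on the libraries of a day, of WT cells, or of all groups for changes between days 6 and 10, with Benjamini-Hochberg adjustment over the 16443 to 18481 genes tested. SE is the log2 fold change divided by the root of F. Scripts were tested on simulated data. Alternatives were RLE size factors, the exact test, DESeq2, no filter, the smallest RefSeq row, other libraries in the fit, a replicate block and leaving out each library. The replicate block was run only where the compared groups shared their replicate numbers. The study describes its replicates as biological. Whether they were separate differentiations is not given in the sources used here, and p-values measure the spread between these libraries. The members, lists and tests were chosen with earlier results of these data known. Named genes are the 9 members, genes of the junction lists that were called or reached 10 CPM in a group, and the 3 genes most like each member, not all of which are reported here. Levels are not compared between genes, because transcript lengths could not be matched to the rows used.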

Additional observations from a re-analysis of the deposited data

Results flagged for a closer look

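The change from day 6 to day 10 differed from that of WT cells for 6 values, by an interaction term in edgeR. In ZEB2 shRNA cells the log2 change of GJA1 was higher by 1.37 ± 0.29 (adjusted p = 0.0024), that of DSP by 0.77 ± 0.15 (adjusted p = 0.00092) and that of DSG2 by 0.66 ± 0.14 (adjusted p = 0.0033), and that of PKP2 differed by -0.65 ± 0.19 (adjusted p = 0.022). In NKX2-5 shRNA cells the change of GJA5 was higher by 2.86 ± 0.71 (adjusted p = 0.0033), and that of CTNNA3 differed by -1.49 ± 0.49 (adjusted p = 0.023). With only days 6 and 10 in the fit, GJA1, DSG2 and PKP2 of ZEB2 shRNA cells no longer passed (adjusted p = 0.053, 0.065 and 0.1). PKP2 was also lost without replicate 1 of ZEB2 shRNA cells or replicate 2 of WT cells at day 6, or without replicate 4 of either line at day 10 (log2 difference -0.80 to -0.50). CTNNA3 was lost without replicate 2 of either line at day 6, replicate 1 of NKX2-5 shRNA cells or replicate 3 of WT cells at day 10 (adjusted p up to 0.2), and was -2.14 without replicate 2 of NKX2-5 shRNA cells at day 10. Among all genes tested, 36% passed 5% FDR for NKX2-5 shRNA cells and 15.8% for ZEB2 shRNA cells. These comparisons share the WT libraries, and no explanation was tested.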

How the results depend on the processing

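Counts of members depended most on the threshold. At 5% FDR with no fold limit in place of the fold thresholds of the study, NKX2-5 shRNA cells against WT had 4, 3, 7 and 6 members at days 0, 2, 6 and 10, ZEB2 shRNA cells 2 and 4 at days 6 and 10, and ZNF503 shRNA cells 1 and 6 at days 2 and 6. WT cells had 2, 8 and 7 against day 0 and 5 between days 6 and 10. The other counts were 7, 2 and 4 between knockdowns at day 6 and 4 at day 10, 5 and 8 for the change from day 6 to day 10 in NKX2-5 and ZEB2 shRNA cells, and 2 and 4 for its difference from WT. For ZEB2 shRNA cells at day 0, 0 members remained under DESeq2, with all libraries in the fit, or with a replicate block, and 0 without any one library. Without each library in turn, counts at the study's thresholds ranged from 0 to 1 for NKX2-5 shRNA cells at day 0, for both knockdowns against each other at day 10, for WT days 2 against 0 and 10 against 6, and for the changes between days 6 and 10 and their differences from WT. They ranged from 1 to 2 for NKX2-5 shRNA cells at day 10. Where a library was left out, the lone sample of its group was assumed to vary like the others.

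Over all log2 fold changes of the members, 2003 alternative values kept their direction and side of 5% FDR, 146 lost and 48 gained a call, 71 without a call moved, and 0 called values changed sign. CTNNA3, GJA1 and PKP2 at day 6 under NKX2-5 and ZNF503 shRNA passed in every alternative run. With no filter the median of all genes shifted by -0.14 for WT at day 10 against days 0 and 6, and the WT calls of DSC2 (day 10 against 0), GJC1 and DSP (day 10 against 6) were lost. With the smallest RefSeq row it shifted by -0.10 for WT at day 10 against day 0. Deviations of same-numbered replicates had correlations of -0.299 to 0.44 over 19 pairs, so the numbers were not taken to pair the samples. Low depth limits GJA5, which had 3 to 150 reads per library.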
